A study of Mus musculus with 5 samples.

Results

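Glutathione S-transferases and the antioxidant genes linked to the transcription factor NRF2 were followed across 5 arrays of mouse sarcoma cells. They comprised 44 listed genes of the 20016 genes with a named probe. Each was found by matching the accession of its probes to a symbol, and where a gene had several probes, the one brightest on average was used. The list was drawn up with earlier results of these arrays known, so its levels are a description and carry no test. All 44 genes were on the array, and all 44 were above background on each of the 5 arrays.

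The arrays measured total RNA of tumour cell lines grown out of soft tissue sarcomas that arose in mice carrying doxycycline-inducible alleles of EWS/ATF1, the fusion of an RNA-binding protein and a transcription factor that marks clear cell sarcoma. The mice had a mixed C57/BL6, 129 and ICR background, which all groups share, as they share the inducible alleles. The 5 groups had 1 array each. After 3 h of exposure there was a control culture, one with a low and one with a high dose of doxycycline, and after 48 h a high-dose culture and its control. The sources used here do not give the doxycycline concentrations, whether control cultures received any, or which tumour line gave each array. A difference between 2 arrays can therefore include one between lines. Whether any probe detects the fusion transcript was not analysed here, so its induction was not checked.

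NRF2, encoded by Nfe2l2, is a transcription factor that KEAP1 holds in the cytoplasm and sends to degradation. Oxidants and electrophiles modify KEAP1, and NRF2 then accumulates and binds antioxidant response elements in genes for glutathione synthesis, thioredoxin cycling, NADPH supply and detoxification. Glutathione S-transferases join the tripeptide glutathione to reactive compounds, and their alpha, mu, pi, theta and omega classes are encoded largely in clusters of related genes.

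Levels are log2 signals relative to the 75th percentile of the same array, so they compare 1 gene between arrays and not 1 gene with another. That percentile lay at a signal of 725, 585 and 556 on the 3 h arrays (control, low dose, high dose), and at 420 at the 48 h high dose and 649 in the 48 h control. An array had 30892 to 33428 of its 55681 probes above background. With no replicates, the only error known is technical. The scanner's error model gave a median of 0.20 for a log2 difference of a listed gene, which holds no variation between cultures. The call of higher or lower required a 2-fold difference or more, with both arrays above background. Marker genes of cell types and of division also differed between the arrays. The summed signal of 10 genes of dividing cells was 163%, 157% and 148% of the 75th percentile on the 3 h arrays (control, low dose, high dose), and 8088% at the 48 h high dose against 178% in the 48 h control. For 8 mesenchymal genes the sum was 8209% at the 48 h high dose and 24881% in the 48 h control. Each of the 8 was lower at that high dose, but S100a4 and Vim supplied most of the sum. Of 15 macrophage genes, 14 were above background at the 48 h high dose and 8 in the 48 h control, with sums of 6557% and 3480%. Among these, Tyrobp, Lyz2 and C1qc were below background on the 3 h high-dose and 48 h control arrays and above it on the other arrays. The macrophage sums rest mostly on the bright genes Csf1r and Itgam. Csf1r was at 5.30 at the 48 h high dose against 2.89 in the 48 h control, and Itgam was at 4.16 against 4.68. Of 10 neural crest and melanocyte genes, 8 were above background on every array, while Foxd3 and Dct were below it on all. In bulk RNA, fewer cells of a type and less RNA per cell cannot be told apart, and the part these markers have in the results below was not tested.

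None of the listed genes was called at 3 h, which is close to the share of all genes, and 14 were called at 48 h. At the 3 h low dose, 0 of 44 were higher and 0 lower than in the 3 h control, where 0.789% of 14062 measured genes were higher and 0.583% lower. At the 3 h high dose the counts were again 0 and 0, against a background of 1.85% higher and 1.45% lower among 14005 genes, and between the doses they were 0 and 0 against 1.27% and 0.913%. The 48 h high-dose array had 1 of the 44 genes higher and 13 lower than the 48 h control, where 9.94% of all measured genes were higher and 10.1% lower. Their median difference was -0.38, beside 0.05 over all 13739 measured genes. The 48 h control array itself stood apart. Against the 3 h control, 16 of 44 genes were higher and 0 lower there, beside 2.5% and 1.36% of 14018 genes, with a median of 0.70 for the listed and 0.01 for all genes.

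**Figure D1:**
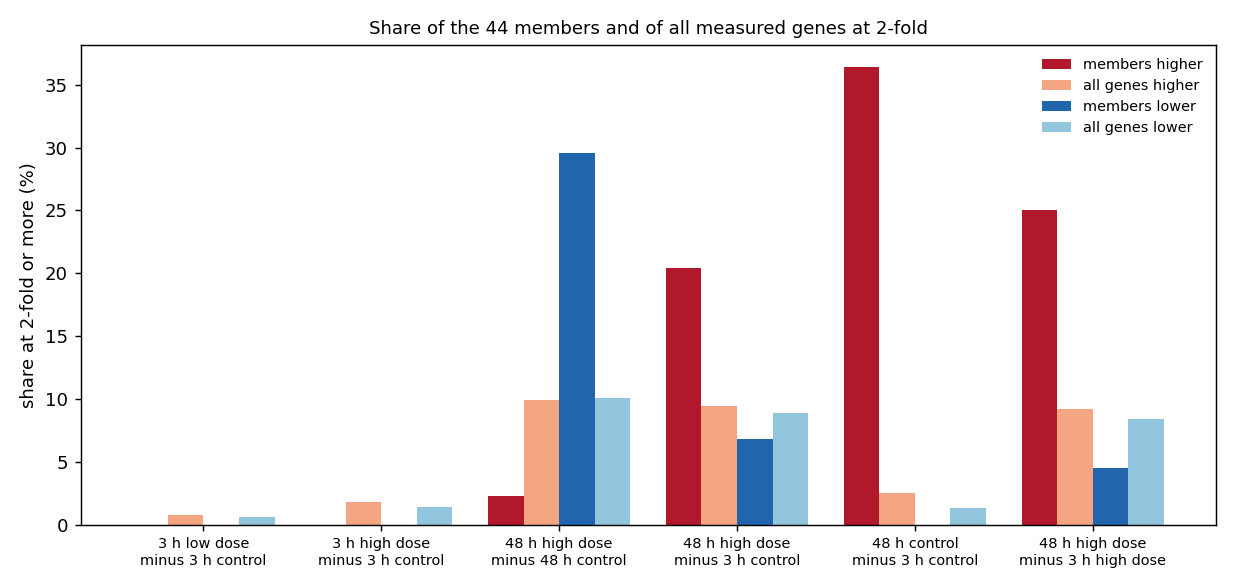
Bars give the percentage of the 44 listed genes (dark) and of all measured genes (light) that were at least 2-fold higher (red) or lower (blue) in each difference between 2 arrays. No listed gene was called in the 3 h dose comparisons, while 29.5% of them were lower at the 48 h high dose than in its own control and 36.4% were higher in the 48 h control than in the 3 h control.

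The regulators themselves stayed level on these arrays. Nfe2l2 stood at 3.81, 3.70 and 3.87 on the 3 h arrays (control, low dose, high dose), and at 3.59 at the 48 h high dose against 3.99 in the 48 h control. Keap1, whose product is the adaptor that marks NRF2 for degradation, stood at 3.40, 3.28 and 3.19 on the 3 h arrays (control, low dose, high dose), and at 3.75 at the 48 h high dose against 3.51 in the 48 h control. Neither gene came near 2-fold in any comparison, and an array of RNA does not measure how much NRF2 protein was present.

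At 3 h the largest differences among the 44 genes stayed under the call. Gpx3, which encodes the secreted glutathione peroxidase of plasma, was at 2.15, 1.95 and 1.25 on the 3 h arrays in order of dose, and the high dose differed from the control by -0.89. Cbr3, a carbonyl reductase gene, was at 3.58, 3.04 and 2.81 in the same order of doses, a difference of -0.77 at the high dose. In both genes the level was lower with each step in dose, by amounts that 1 culture per dose cannot separate from variation between cultures. The same order was seen in other listed genes, such as Gsta3, Gsta4 and Gstt1. Of the 11 listed transferases, 10 were below the 3 h control at the high dose, with a median difference of -0.46 and none called. In the other direction, Slc7a11 was at -2.69, -2.77 and -2.04 in the control, low-dose and high-dose cultures, a difference of 0.65, and Gss was at 0.73, 1.18 and 1.36, a difference of 0.64. Slc7a11 encodes the cystine carrier of system xc- and Gss the enzyme of the last step of glutathione synthesis. The median over the 44 genes was -0.02 for the low-dose and -0.13 for the high-dose culture, beside 0.02 and -0.01 over all measured genes. With the low dose 30 of 44 were below 0, and with the high dose 31. Median centring of the arrays alone moved the median of all genes at the high dose to -0.13. All 44 kept their 3 h levels within 2-fold of each other, as did 96.2% of the 13472 genes above background on all 5 arrays.

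**Figure D2:**
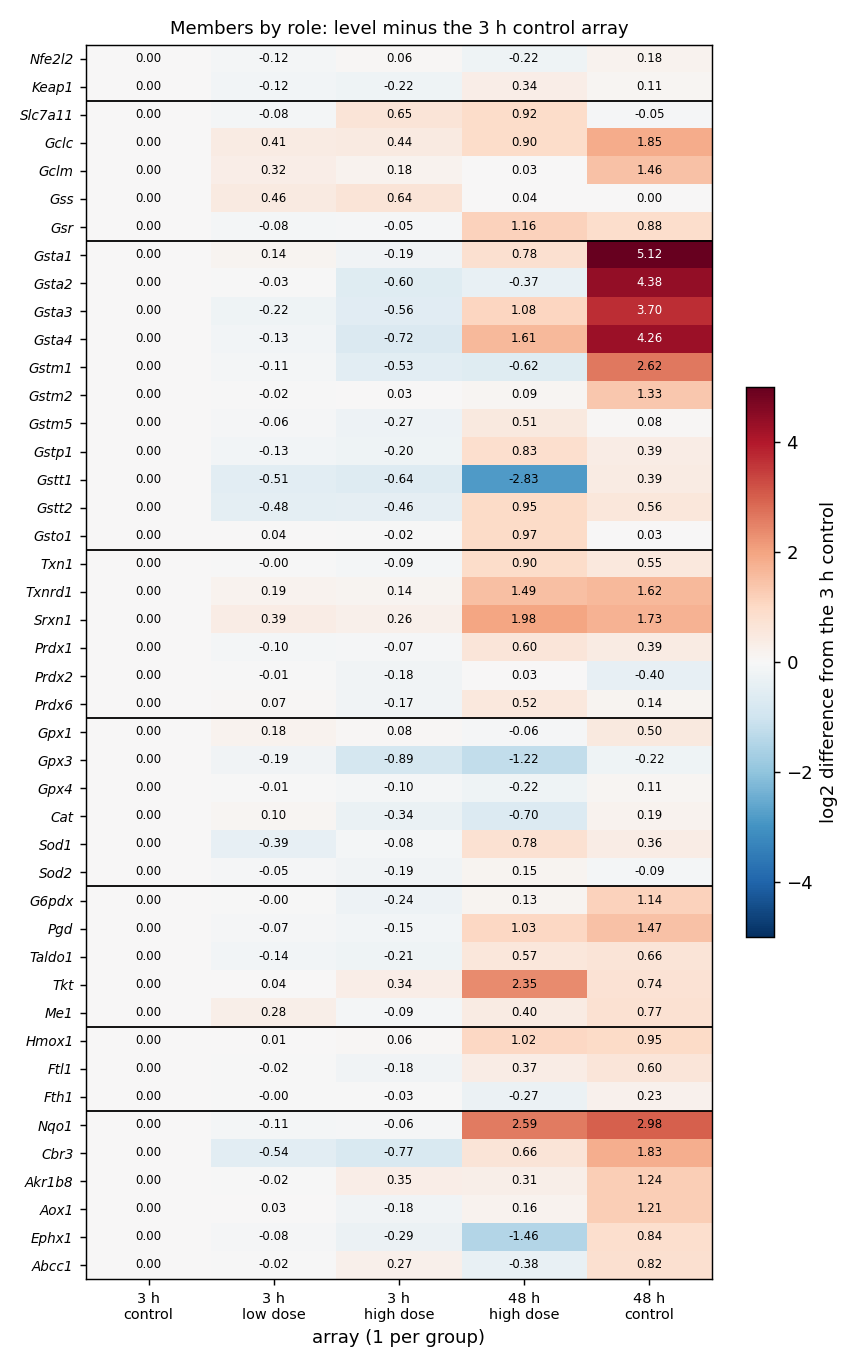
Each row is a listed gene, grouped by role, each column an array, and the number and colour give its log2 level minus that of the 3 h control array (0 in the first column). The 3 h columns stay between -0.89 and 0.65, while the 48 h control column reaches 5.12 for Gsta1 and the 48 h high-dose column runs between -2.83 for Gstt1 and 2.59 for Nqo1.

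The alpha class transferases had the widest range of all 44 genes, and the 48 h control array set it. These enzymes conjugate products of lipid peroxidation. Gsta1 was at -3.63, -3.49 and -3.82 on the 3 h arrays (control, low dose, high dose), and at -2.85 at the 48 h high dose against 1.49 in the 48 h control. Its fall at the 48 h high dose was -4.34 (scanner error 0.22), or 20.2-fold, and -3.38 under normexp background correction, another way of removing background from dim spots. Gsta2 was at -3.13, -3.17 and -3.74 on the 3 h arrays (control, low dose, high dose), and at -3.50 at the 48 h high dose against 1.24 in the 48 h control, a difference of -4.75 (-3.54 under normexp). For both genes 4 arrays lay close together at the dim end and only the 48 h control was bright. Gsta3 was at -1.98, -2.20 and -2.54 on the 3 h arrays in order of dose, and at -0.90 at the 48 h high dose against 1.72 in the 48 h control. That fall of -2.62 was -2.63 on a second probe. Gsta4, whose enzyme acts on 4-hydroxynonenal, was spotted repeatedly, with 8 to 10 usable spots on each array. Its means were -2.37 ± 0.07, -2.50 ± 0.08 and -3.09 ± 0.13 on the 3 h arrays in order of dose, and -0.76 ± 0.06 at the 48 h high dose against 1.90 ± 0.05 in the 48 h control (SD between spots of 1 array). The difference of -2.66 at 48 h was many times that spread, which covers spot noise and no culture. Gsta3 and Gsta4 differed from the dim pair in that both 48 h arrays lay above every 3 h array by at least 2-fold. For Gsta3 this rests on the brightest probe. Its second probe was at -2.19 at the 48 h high dose against -3.02 in the 3 h control, under 2-fold.

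Gsta1 and Gsta2 lie in the alpha class cluster on mouse chromosome 9 and are close copies. The 150 bases before each start, printed here because the pair changed alike, held 124 identical bases over 155 alignment columns (80.0%). These bases lie outside the transcript, so they do not show whether the 2 probes share signal. Capitals mark runs of 10 or more bases that both share, the longest being 29 bases. The sequences are RefSeq's on GRCm38.p6, Gsta1 from chr9:78230519-78230668 on the plus strand and Gsta2 from chr9:78347146-78347295 on the minus strand, each written 5′ to 3′.
Gsta1: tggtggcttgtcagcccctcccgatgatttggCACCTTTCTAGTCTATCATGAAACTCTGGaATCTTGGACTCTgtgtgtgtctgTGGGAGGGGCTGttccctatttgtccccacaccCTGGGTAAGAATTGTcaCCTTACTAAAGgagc
Gsta2: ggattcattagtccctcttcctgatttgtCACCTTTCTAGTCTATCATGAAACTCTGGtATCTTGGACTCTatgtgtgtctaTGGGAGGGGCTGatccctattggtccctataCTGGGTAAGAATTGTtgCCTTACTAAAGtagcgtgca
Probe sequences are not analysed here, so how far the 2 probes measure separate transcripts is unknown. The same holds for the mu class genes among themselves and for Gstp1 and Gstp2.

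**Figure D3:**
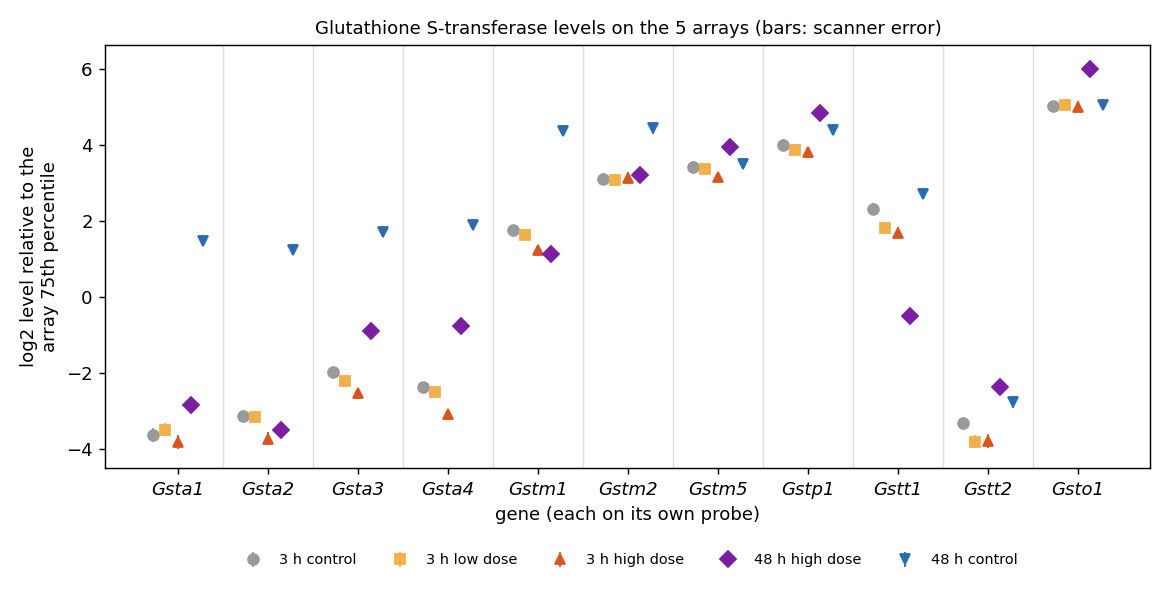
Points give the log2 level of the 11 transferase genes on each of the 5 arrays, relative to the array's 75th percentile, with bars for the scanner error (most are smaller than the symbol). The 48 h control (blue) lies well above the other arrays for Gsta1 to Gsta4, Gstm1 and Gstm2, and the 48 h high dose (purple) well below them for Gstt1.

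Among mu class genes the 48 h control was again the high array. Gstm1 was at 1.76, 1.65 and 1.24 on the 3 h arrays (control, low dose, high dose), and at 1.15 at the 48 h high dose against 4.38 in the 48 h control, a fall of -3.23 (9.41-fold), with -3.34 on its second probe. Gstm2 was at 3.11, 3.1 and 3.15 on the 3 h arrays in order of dose, and at 3.21 at the 48 h high dose against 4.45 in the 48 h control, a fall of -1.24, with -1.29 and -1.44 on its other probes. In both, the 48 h high-dose level was close to those at 3 h. Gstm5, a mu class member best known from brain and testis, went another way. It was at 3.44, 3.38 and 3.17 on the 3 h arrays in order of dose, and at 3.94 at the 48 h high dose against 3.51 in the 48 h control. The mu genes form 1 cluster on chromosome 3, and those that rose in the 48 h control follow one another in the order of the mu genes. In the cluster's order the differences of the 48 h control from the 3 h control were 0.08 for Gstm5, -0.49 for Gstm7, 1.92 for Gstm3, 1.33 for Gstm2, 2.62 for Gstm1 and 2.17 for Gstm4, with Gstm6 not above background on both arrays. At the 48 h high dose against its control, Gstm3 and Gstm4 were at -2.24 and -2.50. Gstm3, Gstm4 and Gstm7 are not among the 44 and were chosen here for their place in the cluster, after their values were seen.

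The listed transferases of the theta, pi and omega classes were all under 2-fold between the 48 h and the 3 h control. Gstt1, a theta class gene whose enzyme acts on small halogenated compounds, was at 2.33, 1.82 and 1.69 on the 3 h arrays (control, low dose, high dose), and at -0.50 at the 48 h high dose against 2.72 in the 48 h control. That fall of -3.22 (9.32-fold) was -2.83 against the 3 h control, so the 48 h high-dose array was the single low one. Gstt2, of the same theta class cluster on chromosome 10, was dim everywhere, at -3.32, -3.81 and -3.78 on the 3 h arrays in order of dose, and at -2.37 at the 48 h high dose against -2.77 in the 48 h control. Gstp1, the pi class gene often abundant in tumours, was at 4.01, 3.88 and 3.82 on the 3 h arrays in order of dose, and at 4.84 at the 48 h high dose against 4.40 in the 48 h control. Gsto1, an omega class gene whose enzyme acts as a thiol transferase and a dehydroascorbate reductase, was at 5.03, 5.07 and 5.01 on the 3 h arrays in order of dose, and at 6.0 at the 48 h high dose against 5.07 in the 48 h control. Gsto1 and Gstp1 were thus highest at the 48 h high dose, by less than 2-fold over the control of that time (0.93 and 0.44). Relatives outside the 44, chosen after their values were seen, did not all behave like them. The omega class gene Gsto2 was at -0.98, -0.96 and -1.09 on the 3 h arrays in order of dose, and at -1.01 at the 48 h high dose against 0.24 in the 48 h control, so it was highest in the 48 h control as the alpha and mu genes were. The theta cluster gene Gstt3 was at 0.55 at the 48 h high dose and 2.03 in the 48 h control (-1.48), with that control 0.76 above the 3 h control. Over all 11 transferases on the list, 0 were higher and 7 lower at the 48 h high dose than in its control (median -2.62), where the shares of all measured genes were 9.94% and 10.1%. In the 48 h control, 6 were higher and 0 lower than in the 3 h control (median 1.33), where those shares were 2.5% and 1.36%.

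Glutathione synthesis was split between its subunits and its supply of cystine. Gclc, the catalytic subunit of the rate-limiting glutamate-cysteine ligase, was at 1.94, 2.34 and 2.38 on the 3 h arrays (control, low dose, high dose), and at 2.84 at the 48 h high dose against 3.79 in the 48 h control. Gclm, the modifier subunit of that ligase, was at -0.17, 0.16 and 0.02 on the 3 h arrays in order of dose, and at -0.13 at the 48 h high dose against 1.30 in the 48 h control. Both subunits were highest in the 48 h control, by 1.85 and 1.46 over the 3 h control, and the difference at the 48 h high dose passed 2-fold for Gclm (-1.43) and just missed it for Gclc (-0.95). Slc7a11, the cystine carrier gene, was the reverse, at -1.77 at the 48 h high dose against -2.74 in the 48 h control, a difference of 0.98 that also just missed the call. Gss was at 0.76 at the 48 h high dose and 0.73 in the 48 h control, below its levels of 1.18 and 1.36 at the 3 h low and high doses. Gsr, which encodes the reductase that regenerates glutathione, was high on both 48 h arrays, at 3.96 at the high dose and 3.68 in the control, against 2.79, 2.72 and 2.74 on the 3 h arrays in order of dose.

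Nqo1, Txnrd1 and Srxn1 were high on both 48 h arrays, with and without the high dose. Nqo1, the quinone reductase gene commonly read as a marker of NRF2 activity, was at 0.85, 0.75 and 0.79 on the 3 h arrays (control, low dose, high dose), and at 3.45 at the 48 h high dose against 3.83 in the 48 h control. The 48 h control exceeded the 3 h control by 2.98 and the 48 h high dose exceeded the 3 h high dose by 2.65, while the 48 h arrays differed from each other by -0.39. Txnrd1, the cytosolic thioredoxin reductase gene, was at 3.92, 4.12 and 4.06 on the 3 h arrays in order of dose, and at 5.42 at the 48 h high dose against 5.54 in the 48 h control. Srxn1, which encodes the sulfiredoxin that repairs overoxidised peroxiredoxins, was at 4.32, 4.71 and 4.58 on the 3 h arrays in order of dose, and at 6.30 at the 48 h high dose against 6.04 in the 48 h control. In all of these the 48 h arrays lay together above the 3 h arrays. Of the 44 genes, 6 had both 48 h arrays at least 2-fold above all 3 h arrays (13.6%), namely Gsta3, Gsta4, Nqo1, Pgd, Srxn1 and Txnrd1, beside 35 of 13472 genes (0.260%). This pattern was written down after the values were seen, and Gsta3 had it on its brightest probe only.

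The other genes of thioredoxin cycling differed less. Txn1, the thioredoxin itself, was at 6.09 at the 48 h high dose and 5.74 in the 48 h control, against 5.10 to 5.19 on the 3 h arrays. The peroxiredoxin genes Prdx1, Prdx2 and Prdx6, whose enzymes reduce peroxides, differed between the 48 h high dose and its control by 0.21, 0.42 and 0.37, while a second probe of Prdx1 gave -0.07 and other probes of Prdx6 between 0.30 and 0.79. None of the 6 genes of thioredoxin cycling was called higher or lower at the 48 h high dose against its own control. Of all measured genes, 9.94% were higher there and 10.1% lower.

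Enzymes that remove peroxide and superoxide stayed under 2-fold in that comparison, with Gpx3 at its edge. Gpx3 was at 0.93 at the 48 h high dose and 1.93 in the 48 h control, a difference of -0.999 that came to just under 2-fold, and against the 3 h control the same array was at -1.22. Gpx1 and Gpx4, the cytosolic and the phospholipid glutathione peroxidase genes, differed by -0.57 and -0.33. Cat, the catalase gene, was at 0.50, 0.60 and 0.16 on the 3 h arrays (control, low dose, high dose), and at -0.20 at the 48 h high dose against 0.69 in the 48 h control. Its difference of -0.89 missed the call, while a second probe gave -1.11. The superoxide dismutase genes Sod1 and Sod2, of the cytosol and the mitochondrion, differed by 0.42 and 0.24. Among the 6 genes, Gpx1, Gpx3, Gpx4 and Cat were lower at the 48 h high dose than in its control and the dismutases were higher. All were under 2-fold on the brightest probe, where 9.94% of all measured genes were higher and 10.1% lower. Gpx3 passed 2-fold under quantile normalisation (-1.02) and with the percentile over probes above background on all arrays (-1.08).

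Genes of NADPH supply parted at the 48 h high dose. Tkt, the transketolase gene of the non-oxidative pentose phosphate pathway, was at 5.80, 5.83 and 6.14 on the 3 h arrays (control, low dose, high dose), and at 8.15 at the 48 h high dose against 6.54 in the 48 h control. It rose by 1.62 (3.07-fold) and was the single listed gene called higher there. The difference was 2.35 against the 3 h control and 2.02 between the high doses of 48 h and 3 h. G6pdx, which encodes the dehydrogenase of the first oxidative step, was instead highest in the 48 h control. It was at 4.21, 4.21 and 3.97 on the 3 h arrays in order of dose, and at 4.34 at the 48 h high dose against 5.35 in the 48 h control, a fall of -1.01 that was 2.01-fold and became -0.986 under normexp background correction. Pgd, the next dehydrogenase of that branch, was at 3.59, 3.52 and 3.44 on the 3 h arrays in order of dose, and at 4.62 at the 48 h high dose against 5.07 in the 48 h control. Pgd was thus high on both 48 h arrays and G6pdx on the control only. Taldo1 (transaldolase) and Me1 (malic enzyme) differed by -0.08 and -0.37 at the 48 h high dose from its control, and both were higher in the 48 h control than in the 3 h control, by 0.66 and 0.77.

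Among haem and iron genes, Hmox1 was above its 3 h levels on both 48 h arrays, by less on a second probe. Hmox1, the inducible haem oxygenase gene, was at 1.69, 1.70 and 1.75 on the 3 h arrays (control, low dose, high dose), and at 2.71 at the 48 h high dose against 2.64 in the 48 h control. Both 48 h arrays lay above the 3 h arrays by close to 2-fold, at 1.02 for the high dose and 0.95 for the control against the 3 h control. A second probe was at -0.97, -0.98 and -0.83 on the 3 h arrays in order of dose, and at -0.32 at the 48 h high dose against -0.14 in the 48 h control. There the 48 h control exceeded the 3 h control by 0.83, and the 48 h high dose exceeded the 3 h high dose by 0.51 (0.96 on the brighter probe), so the 2-fold call rests on 1 probe. The ferritin light and heavy chain genes Ftl1 and Fth1, among the brightest probes, differed by -0.23 and -0.51 between the 48 h high dose and its control.

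Enzymes of quinone, carbonyl, aldehyde and epoxide metabolism and the efflux pump were all lower at the 48 h high dose than in its control. Of these 6 genes, 4 were lower by 2-fold, where 10.1% of all measured genes were. Ephx1, the microsomal epoxide hydrolase gene, was at 5.76, 5.68 and 5.48 on the 3 h arrays (control, low dose, high dose), and at 4.30 at the 48 h high dose against 6.61 in the 48 h control. Its fall of -2.30 was -2.13 on a second probe and -1.46 against the 3 h control, so it was lowest at the 48 h high dose whichever control was used. Cbr3 was at 4.24 at the 48 h high dose and 5.41 in the 48 h control, a fall of -1.17 in which both arrays lay above the 3 h levels. Aox1, the aldehyde oxidase gene, was at 1.36, 1.39 and 1.18 on the 3 h arrays in order of dose, and at 1.52 at the 48 h high dose against 2.57 in the 48 h control (-1.05). Abcc1, which encodes a pump for glutathione conjugates, was at 0.39, 0.37 and 0.66 on the 3 h arrays in order of dose, and at 0.01 at the 48 h high dose against 1.21 in the 48 h control (-1.20). The aldo-keto reductase gene Akr1b8, with 10 spots on each array, was at 3.11 ± 0.06, 3.09 ± 0.07 and 3.46 ± 0.06 on the 3 h arrays in order of dose, and at 3.42 ± 0.06 at the 48 h high dose against 4.35 ± 0.05 in the 48 h control (SD between spots). Its difference of -0.93 exceeded the spread between spots and missed 2-fold.

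Which control was used decided most of the falls at the 48 h high dose. The high-dose comparisons at 3 h and 48 h have a control each, and the 48 h control was the highest of the 5 arrays for 26 of the 44 genes (59.1%), against 20.4% of all 13472 genes. It exceeded every other array by 2-fold or more for 10 of the 44 (22.7%) and for 83 of 13472 genes (0.616%). These were Aox1, Cbr3, G6pdx, Gclm, Gsta1, Gsta2, Gsta3, Gsta4, Gstm1 and Gstm2. Set against the 3 h control instead, the 48 h high-dose array had 9 of 44 genes higher and 3 lower, beside 9.44% and 8.85% of 13555 genes, with a median of 0.45. The 9 were Gsr, Gsta3, Gsta4, Txnrd1, Srxn1, Pgd, Tkt, Hmox1 and Nqo1 (Gsta3 and Hmox1 on the brightest probe only). The 3 were Gstt1, Gpx3 and Ephx1. Of the 13 genes that fell at 48 h, Gsta1, Gsta3, Gsta4 and Cbr3 thereby lay above the control, by 0.78, 1.08, 1.61 and 0.66. Gclm, Gstm2, G6pdx and Aox1, at 0.0304, 0.0947, 0.13 and 0.16, did not differ from the 3 h control beyond the scanner error of 0.20. Gsta2, Gstm1 and Abcc1 kept it under 2-fold, at -0.37, -0.62 and -0.38, and Gstt1 and Ephx1 kept both direction and call. Between the high-dose arrays of 48 h and 3 h, 11 of 44 genes were higher and 2 (Gstt1 and Ephx1) lower, beside 9.17% and 8.38% of 13772 genes. The 3 h arrays set against the 48 h control gave 0 higher and 18 lower at the high dose, where 1.96% and 3.09% of 14324 genes were called, and 0 higher and 17 lower at the low dose, where 2.11% and 3.24% of 14333 were. Whether culture time, the line or another property of the 48 h control culture goes with its levels cannot be told apart with 1 array per group.

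**Figure D4:**
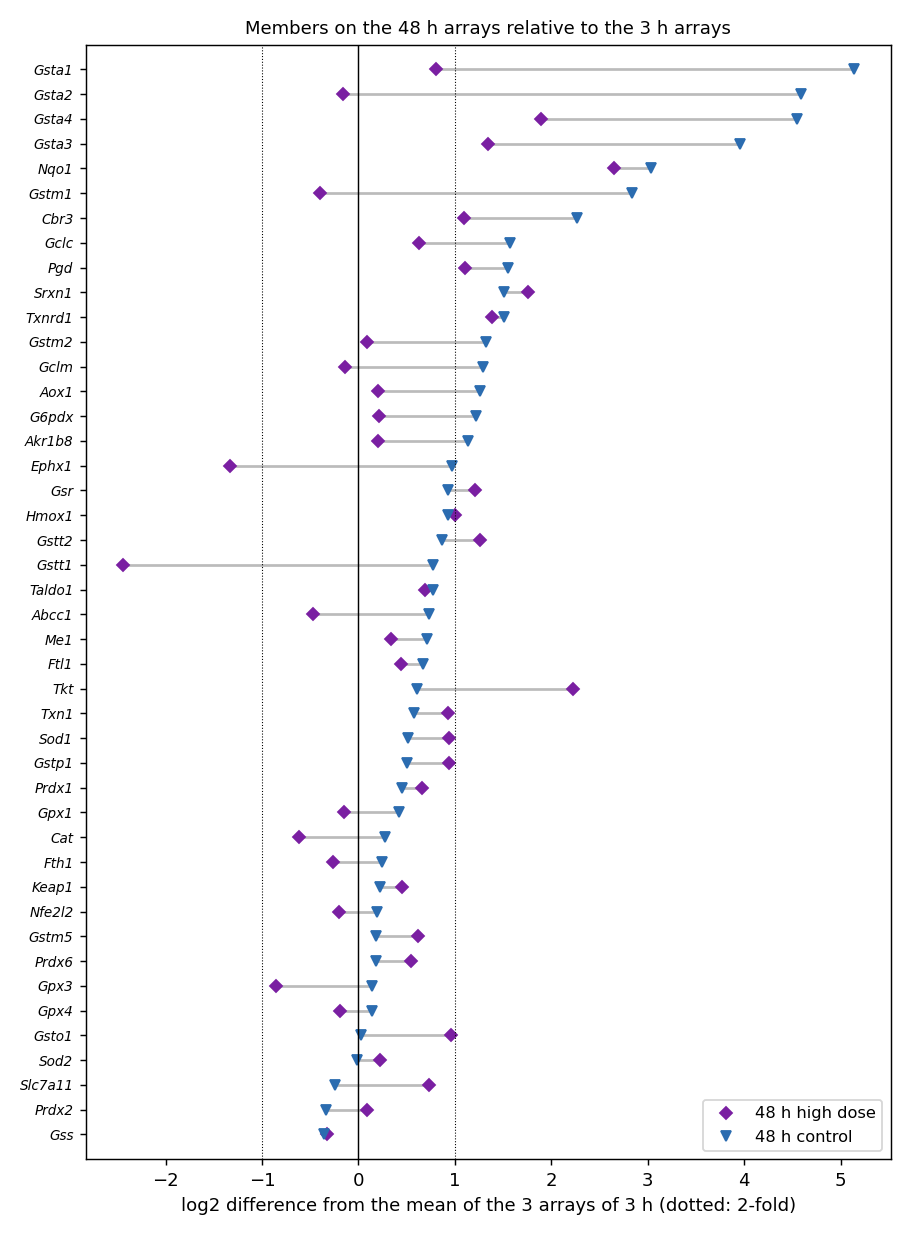
For each of the 44 genes the 2 symbols give the log2 level at the 48 h high dose (purple) and in the 48 h control (blue) minus the mean of the 3 arrays of 3 h, with dotted lines at 2-fold and genes sorted by the control. Gsta1, Gsta2, Gsta4 and Gsta3 lead at the top through the control, Nqo1, Srxn1 and Txnrd1 have both symbols right of the 2-fold line, and Gstt1 and Ephx1 have the high dose left of it.

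The antioxidant response element, the DNA site of NRF2 and small MAF proteins, has the core TGACNNNGC. Promoter windows from 250 bases before to 50 bases after the start were in the RefSeq table (GRCm38.p6) for 37 of the 44 genes. The core was found on either strand in 11 of the 37 (29.7%), beside 3781 of 27025 genes (14%). The genes were listed as transferases or for their link to NRF2, so a share above that of all genes may follow from the choice of list. In Srxn1, Pgd and Me1 the match did not lie wholly before the start. Among genes with a window, 6 of the 14 that were higher in the 48 h control than in the 3 h control held the core, as did 5 of the other 23. Windows that hold the core before the start of genes higher in the 48 h control are printed with the core in capitals, 5′ to 3′ on the strand of the gene. Gsta3 is from chr1:21240439-21240498 (plus strand), Gclm from chr3:122245398-122245457 (plus), Txnrd1 from chr10:82859089-82859148 (plus) and G6pdx from chrX:74428903-74428962 (minus).
Gsta3: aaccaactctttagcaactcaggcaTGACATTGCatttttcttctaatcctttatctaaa
Gclm: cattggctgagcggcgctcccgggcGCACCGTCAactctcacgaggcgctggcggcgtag
Txnrd1: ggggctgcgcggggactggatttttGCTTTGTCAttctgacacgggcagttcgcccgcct
G6pdx: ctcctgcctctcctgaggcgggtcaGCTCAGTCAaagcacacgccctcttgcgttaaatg
In Gsta3 the core reads on the strand of the gene, and in the other 3 on the opposite strand. The AP-1 motif TGANTCA, which overlaps the core where the middle letters allow it, was in 6 of 37 windows (16.2%), beside 8.97% of genes. The cAMP response element TGACGTCA, a site of ATF1 and its relatives, was in 0 of 37, beside 2.03% of genes. A match is a description and not a site in use, and a missing match says only that the letters are not in the window.

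Genes of the same pathways outside the 44 gave a comparison list of 133 genes, of which 129 were on the array. At the 3 h low dose 2 of 112 measured genes were higher (1.79%, beside 0.789% of all genes) and 1 lower (0.893%, beside 0.583%). At the 3 h high dose 3 of 113 were higher (2.65%, beside 1.85%) and 4 lower (3.54%, beside 1.45%). At the 48 h high dose 13 of 112 were higher than in the 48 h control, 11.6% and so near the 9.94% of all genes, and 25 were lower, 22.3% beside 10.1% (median -0.14). In the 48 h control 11 of 114 were higher than in the 3 h control (9.65%, beside 2.5%) and 1 was lower (0.877%, beside 1.36%), with a median of 0.11. Of the 12 measured transferases among them, 0 were higher and 7 lower at the 48 h high dose against its control. Mgst1, a microsomal glutathione transferase gene, was at 4.08, 4.0 and 4.11 on the 3 h arrays (control, low dose, high dose), and at 2.50 at the 48 h high dose against 5.85 in the 48 h control. The high-dose array was the low one for Mgst1, by -3.35 against the 48 h and -1.58 against the 3 h control.

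Among regulators that share DNA elements with NRF2, Maff and Bach2 moved at 3 h, while Mafg, Mafk, Nfe2l1 and Bach1 stayed under 2-fold. Maff, which encodes a small MAF partner of NRF2, was at -1.18, 0.69 and 0.54 on the 3 h arrays (control, low dose, high dose), and at 1.23 at the 48 h high dose against -0.89 in the 48 h control. It was above both controls on all 3 doxycycline arrays, by 1.87 with the low and 1.72 with the high dose at 3 h and by 2.12 at 48 h over the control of the same time. Bach2, a repressor that binds with small MAF proteins, was at -1.62, -0.27 and 0.01 on the 3 h arrays in order of dose, and at -0.77 at the 48 h high dose against -1.30 in the 48 h control. Its rises of 1.35 and 1.63 at 3 h were therefore not matched at 48 h, where the difference was 0.52. Mafg was at 5.10, 5.30 and 5.09 and Mafk at -0.19, -0.14 and -0.06 on the 3 h arrays in order of dose. Nfe2l1 was at -0.02, -0.05 and 0.10 and Bach1 at 2.51, 2.57 and 2.97 in the same order. Of 11 measured regulators, Maff and Bach2 were the 2 called higher at each 3 h dose (18.2%), and 0 were lower. Of all measured genes, 0.789% were higher and 0.583% lower at the low dose, and 1.85% and 1.45% at the high dose.

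Most of the other pathway genes named by the same rule were lower after doxycycline. The rule took those called in a comparison of dose with control, at most the 8 largest in each. At 48 h, 13 were called higher and 25 lower, and Ggt1 was the only rise among the 8 largest. Txnip, the thioredoxin inhibitor gene, was at 2.33, 1.77 and 0.84 on the 3 h arrays (control, low dose, high dose), and at -2.50 at the 48 h high dose against 2.12 in the 48 h control, falls of -1.48 at the 3 h high dose and -4.62 at 48 h. Cyp1b1, a cytochrome P450 gene of xenobiotic and oestrogen metabolism, was at 1.53, 1.16 and -0.17 on the 3 h arrays in order of dose, and at -1.46 at the 48 h high dose against 1.46 in the 48 h control. Both kept their falls against the other control array. Abcc3, another conjugate pump gene, was at 0.83, -1.64 and -1.40 on the 3 h arrays in order of dose, and at -2.65 at the 48 h high dose against -0.92 in the 48 h control. Its falls of -2.46 and -2.23 at 3 h were -0.72 and -0.49 against the 48 h control, while the 48 h high dose was lower than either control, by -1.74 for 48 h and -3.48 for 3 h. Anpep, an aminopeptidase gene, was at -1.07 and Ugdh, whose enzyme makes the donor for glucuronidation, at 1.13 for the 3 h high dose against its control. At 48 h the gamma-glutamyl transferase family genes moved in opposite directions, with Ggt1 at 0.58 at the high dose against -2.44 in the control (3.02) and Ggt5 at -4.43 against 1.86 (-6.29). Cbr2, Aldh1a1 and Oplah, genes for a carbonyl reductase, a retinal dehydrogenase and 5-oxoprolinase, were lower at the 48 h high dose by -4.65, -3.80 and -2.85. Ggt5, Cbr2 and Aldh1a1 were dim on that array, at -4.43, -3.67 and -4.72. Scanner errors of their differences were 0.32, 0.23 and 0.32, and how far these falls depend on background removal is not given here.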

How the data were processed

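Total RNA was labelled with Cy3 and hybridised to 5 one-colour arrays, per the labels' protocols. The deposited intensity of each spot is the linear processed signal of Agilent Feature Extraction 10.7.3.1 (version per the submitters' processing notes), background-subtracted and spatially detrended within the array and not normalised between arrays, per the file headers. The deposited value table, whose scale no label states, differed from that signal by at most 0.001 on the log2 scale for 99.4% of values, counted over all probes and arrays. Its medians were 38.3, 32.5 and 31.9 on the 3 h arrays (control, low dose, high dose), 23.9 at the 48 h high dose and 37.7 in the 48 h control, so it is neither centred nor scaled.

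Each signal was taken to log2 less the array's 75th percentile, without 111 to 146 outlier spots per array, and no spot reached saturation. Spots of a probe were averaged, and a probe counted as above background if at least 0.5 of its spots did. Probe accessions were matched without versions to RefSeq symbols (GRCm38.p6, for names only, the headers naming another build), which gave 26413 probes 1 symbol, 29268 none and 0 several. Of the 44 genes, 33 had 1 probe and 11 had more. Other probes differed from the brightest by a median of 0.0656 to 0.173 (log2), depending on the comparison. All arrays lay on 1 slide and in 1 scan.

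With 1 array per group the number of arrays limits precision, and no test was made. The members and lists were chosen with earlier results of these data known. All 44 members could be named, and of other pathway genes those called in a comparison of dose with control, at most the 8 largest in each. Genes of the mu and theta clusters and Gsto2 were named beyond that rule. The alternatives tried were median centring, quantile normalisation, normexp background correction (offset 50, on the median spot signal), the percentile over probes above background on all arrays, the deposited table, no filter on dim probes, the mean of a gene's probes, a 1.5-fold threshold and the other control array. Python 3.11.15, pandas 2.3.3, numpy 2.4.6, Biopython 1.88, matplotlib 3.10.9, R 4.3.3 and limma 3.58.1 were used, and the calling step was tested on simulated data.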

Additional observations from a re-analysis of the deposited data

How the results depend on the processing

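No paired analysis was possible because each group had 1 array and the labels carry no replicate numbers, and no array could be left out in turn. Of 147 values of counts and medians under alternatives, 130 stayed close to those reported and 17 moved. At the 3 h high dose, 1 gene was lower with median centring (Gpx3, at -1.01), and against the 48 h control 18 were lower with a median of -0.87. At the low dose 17 were lower against the 48 h control with a median of -0.82. Against the 3 h control, the 48 h high dose had 9 higher and 3 lower with a median of 0.45, and Gclm (0.0304), Gsta1 (0.78), Gsta3 (1.08), Gsta4 (1.61), Gstm2 (0.0947), G6pdx (0.13), Cbr3 (0.66) and Aox1 (0.16) reversed, of which Gclm, Gstm2, G6pdx and Aox1 lay within the scanner error. Quantile normalisation gave medians of -0.65 for the 48 h high dose against its control and 0.28 for the high doses of 48 h and 3 h. At a 1.5-fold threshold the 3 h high dose had 2 higher and 5 lower than control and 1 higher and 2 lower than the low dose, the 48 h high dose had 3 higher, and the 48 h against the 3 h high dose 20 higher and 4 lower. Median centring moved the median of all genes to -0.13 at the 3 h high dose and to -0.12 between the controls, and the share of calls that were higher to 40.7% (against 56.1%) at the 3 h high dose, 46.8% (against 57.5%) at the low dose and 50.1% (against 64.8%) between the controls. Near the call at 48 h, Gclc reached -1.06 and Akr1b8 and Gpx3 -1.09 and -1.02 with quantile normalisation, and Fth1 -1.04. Normexp left Gsta1 at -3.38 and Gsta2 at -3.54 at 48 h. The cause was not tested.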
